A study of Rattus norvegicus with 32 samples.

Results

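The genes described here are the rat cytochromes P450 of families 1 to 4, the haem enzymes with which the liver oxidises drugs, pollutants, steroids and fatty acids. Members were all genes whose array annotation carries a symbol of these families (Cyp followed by 1, 2, 3 or 4 and a subfamily letter) and that have a probe set for that gene alone. The brightest probe set stood for a gene with several. By this rule 39 of the 13437 genes with a single-gene probe set were members, read from 42 probe sets, and 36 of the 11625 genes bright enough to be tested were among them. The 3 members that were too dim to be tested were Cyp2b12, Cyp2b21 and Cyp4f17. A further 7 probe sets of these families are annotated to several genes at once, among them those for Cyp2b1 with Cyp2b2, Cyp2c6v1, Cyp2c7, Cyp2d1 with Cyp2d5 and Cyp4a2, and they were not analysed here.

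The samples were total liver RNA of male Wistar Kyoto rats, 10 weeks old and 250 to 300 g in weight, that had inhaled either filtered air or 1 ppm of ozone, the oxidant of smog. Exposure lasted 6 h per day. Livers were taken when the exposure of day 1 ended (6 arrays after air and 6 after ozone), when that of day 2 ended (5 and 5), and 18 h after that of day 2 (5 and 5). Each time has its own air group, and all groups share strain, sex and age. The labels number the replicates without saying that each came from a separate animal, so p-values measure the spread between these samples, which may be technical.

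A P450 enzyme binds its substrate beside a haem iron and inserts an oxygen atom into it, using electrons that P450 oxidoreductase (Por) draws from NADPH. Families 1 to 3 act mainly on foreign compounds and steroids, and most enzymes of family 4 hydroxylate fatty acids and eicosanoids at the end of the chain. In liver the genes are expressed mostly in hepatocytes and are controlled largely by transcription: the aryl hydrocarbon receptor drives family 1, the pregnane X receptor (Nr1i2) and the constitutive androstane receptor (Nr1i3) drive many genes of families 2 and 3, and PPARα drives subfamily 4A. In rats several 2C and 3A enzymes are also male- or female-predominant under the control of growth hormone.

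Values are the authors' probe-set intensities on a linear scale. Differences are on the scale log2(intensity + 16), given with their standard errors, and were tested with limma over all 11625 genes at once. A gene is said to have risen or fallen where its adjusted p lay under 0.05. Fold values are on the same scale and so understate the change of dim genes. Subfamily members resemble one another in sequence to differing degrees. A probe set can pick up RNA of a close relative, so single members of the 2C, 2D, 3A, 4A and 4F subfamilies are measured with that uncertainty. In whole liver, fewer cells of a type and less RNA per cell cannot be told apart.

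Array medians lay between 147 and 161 intensity units. Some arrays stood apart from their groups. Over all genes, 7 of the 32 arrays correlated better with the mean of another group than with that of their own, and for 4 of these the nearer group was not simply the other air group taken as an exposure ended: replicate 5 of day 2 air (nearer day 2 ozone), replicate 5 of day 2 ozone (nearer ozone at 18 h), and replicates 1 and 5 of air at 18 h (nearer ozone at 18 h and day 1 air). The other 3, replicate 5 of day 1 air and replicates 1 and 2 of day 2 air, lay nearer each other's group. The 4 are called the arrays that stood apart, and fits without all 7 are given as well. Replicate 2 of day 1 air and replicate 3 of day 1 ozone were dim in the probes for nonspecific binding, with medians of 54.3 and 66.1 units against 85.2 to 92.0 on the other arrays. Results that rest on these arrays are given with and without them. All these sets were chosen after seeing the data, and leaving out arrays because they lay far from their own group by itself lowers the spread within groups. Leaving out an air array because it lay nearer an ozone group also by itself tends to widen the differences between ozone and air. The tissue label was checked on 7 hepatocyte markers bright enough to be tested, whose summed intensity lay between 61459.8 and 68206 on every array.

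When the exposure of day 1 ended, 14 of the 36 tested members differed between ozone and air: 11 had fallen and 3 had risen. The falls lay in subfamilies 2B, 2C, 2D, 2J, 3A, 4F and 4V, led by Cyp2j3, an epoxygenase of arachidonic acid, and by Cyp3a18 and Cyp3a2, hydroxylases of testosterone. The rises were Cyp4a1, Cyp4b1 and Cyp2j10. The falls came to 30.6% of the members, and 16.4% of all genes tested fell. The rises came to 8.33%, beside 13.1% of all genes. In either direction 38.9% of the members passed, and 29.5% of all genes. The median difference of the members was -0.10, and that of all genes tested was 0.0045. Ozone and air arrays did not overlap at all for 8 members, 7 of them lower and 1 higher after ozone, and 15.9% of all genes tested were without overlap.

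**Figure D1:**
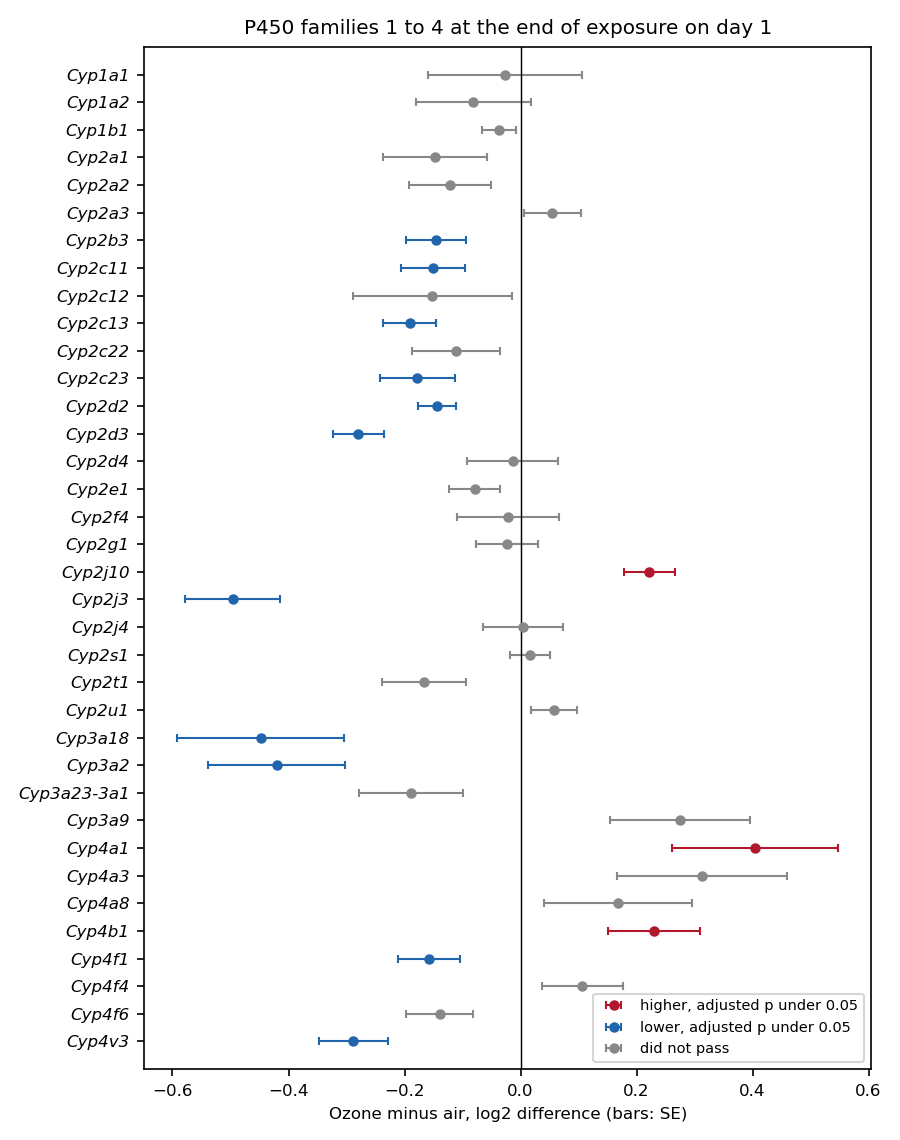
Ozone minus air when the exposure of day 1 ended, for the 36 tested P450 members, as log2 difference (x axis) with its standard error, from 6 arrays in each group. Colours mark the adjusted p from limma under 0.05. Cyp2j3 lies farthest left at -0.50 and Cyp4a1 farthest right at 0.40, and 25 of the 36 points lie below 0.

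Cyp2j3 had the largest fall. Its intensity was 1586 to 2079 (median 1735) in air and 1032 to 1484 (median 1276) in ozone. Every ozone array lay below every air array. The difference was -0.50 ± 0.08, a 1.41-fold lower level (adjusted p = 2.46e-05). The other tested members of the subfamily read differently. Cyp2j4, its direct neighbour on the chromosome in the GRCr8 assembly, differed by 0.0042, with a 95% interval of -0.14 to 0.14. Cyp2j10 rose, with 98.6 to 139 (median 125) in air and 139.9 to 153 (median 148) in ozone, again without overlap (0.22 ± 0.04, adjusted p = 0.000247). That probe set is dim and reads close to the nonspecific level, and its lowest air value belongs to one of the arrays dim in nonspecific binding. Without these 2 arrays the difference was 0.16 ± 0.03 (adjusted p = 0.000479).

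The 2D enzymes are the rat relatives of the human debrisoquine hydroxylase. Cyp2d3 read 2482 to 2839 (median 2659) in air and 2041 to 2416 (median 2137) in ozone, and Cyp2d2 read 6806 to 7205 (median 7007) and 5979.7 to 6786 (median 6303). Neither gene had an ozone array within the range of air, although for Cyp2d2 the gap was only that between 6786 and 6806. Cyp2d3 fell by 1.21-fold (-0.28 ± 0.04, adjusted p = 1.17e-05), which was the smallest adjusted p of any member. Cyp2d2 fell by 1.10-fold (-0.14 ± 0.03, adjusted p = 0.000917), a small difference against the narrow spread of this gene. The third member tested, Cyp2d4, differed by -0.01 with an interval of -0.17 to 0.15. A second, dimmer probe set for Cyp2d4 lay on the other side of 0 (0.17 ± 0.07, adjusted p = 0.0599), so the probe sets of this gene disagree in direction and neither passed. Cyp2d2 and Cyp2d3 are direct neighbours in GRCr8, with no protein-coding gene between them.

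Of the 3A enzymes, which hydroxylate testosterone and a broad range of drugs, 2 of 4 fell. Cyp3a18 read 3268 to 4411 (median 4009.9) in air and 1971 to 4159.9 (median 2716) in ozone. The ozone arrays split: 4002 and 4159.9 lay within the air range, and the other 4 arrays, at 2292, 3141, 2206 and 1971, lay below it. The difference was -0.45 ± 0.14, 1.36-fold lower (adjusted p = 0.0176), and it was lost without replicate 3 or 6 of ozone and with only the 2 groups in the fit (adjusted p up to 0.0667). Cyp3a2 read 4795 to 5879 (median 5164) in air and 3049 to 4517 (median 3983) in ozone, with every ozone array below every air array (-0.42 ± 0.12, 1.34-fold lower, adjusted p = 0.00696). Cyp3a23-3a1, the dexamethasone-inducible enzyme whose gene lies next to Cyp3a2, read 5045 to 6709 (median 5506) in air and 4135 to 6456 (median 4927) in ozone. The groups overlapped and the difference did not pass (-0.19 ± 0.09, adjusted p = 0.119). Cyp3a9 was the member of this subfamily with a difference above 0: 1756 to 2308 (median 1834) in air and 1862 to 2779 (median 2429.6) in ozone (0.28 ± 0.12, adjusted p = 0.0863). It did not pass either, but it did with only the 2 groups in the fit (adjusted p = 0.0394), without replicate 1 of air (0.0489) or replicate 2 of ozone (0.0365), and without the 4 arrays of other times that stood apart (0.0203) or all 7 (0.0128).

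The proximal promoters of these 5 genes (Cyp2d2, Cyp2d3, Cyp2j3, Cyp3a2 and Cyp3a18) are shown, those of Cyp2d2, Cyp2d3, Cyp2j3 and Cyp3a18 because the ozone effect on these genes differed between day 1 and day 2 in the test given further on, and that of Cyp3a2 because it fell beside Cyp3a18. They were chosen after the values were seen. They are RefSeq sequences of the GRCr8 assembly, from 250 bases before to 50 after the annotated start, 5′ to 3′ on the strand of the gene. Cyp2d2 lies at chr7:115819232-115819531 and Cyp2d3 at chr7:115802093-115802392, both on the minus strand. Cyp2j3 lies at chr5:116360450-116360749 (minus), Cyp3a2 at chr12:14343808-14344107 (minus) and Cyp3a18 at chr12:13994062-13994361 (plus). Capitals mark the nuclear receptor half-sites AGGTCA and AGTTCA, or their reverse complements TGACCT and TGAACT.
Cyp2d2: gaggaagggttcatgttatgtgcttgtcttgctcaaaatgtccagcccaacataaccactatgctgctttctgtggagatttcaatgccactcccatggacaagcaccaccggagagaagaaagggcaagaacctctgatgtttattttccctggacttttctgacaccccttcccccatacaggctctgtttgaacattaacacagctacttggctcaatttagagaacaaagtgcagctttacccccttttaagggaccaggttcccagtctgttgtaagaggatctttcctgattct
Cyp2d3: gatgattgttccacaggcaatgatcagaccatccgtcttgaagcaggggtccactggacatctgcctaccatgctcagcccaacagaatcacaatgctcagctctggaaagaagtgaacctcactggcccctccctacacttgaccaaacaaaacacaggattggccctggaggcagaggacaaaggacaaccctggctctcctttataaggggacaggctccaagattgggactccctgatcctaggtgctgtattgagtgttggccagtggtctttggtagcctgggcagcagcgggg
Cyp2j3: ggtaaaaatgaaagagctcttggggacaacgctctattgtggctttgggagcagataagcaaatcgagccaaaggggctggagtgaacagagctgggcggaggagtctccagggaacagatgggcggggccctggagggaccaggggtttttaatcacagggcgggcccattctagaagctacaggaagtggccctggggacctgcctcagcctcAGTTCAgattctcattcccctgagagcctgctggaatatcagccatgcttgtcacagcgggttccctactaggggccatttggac
Cyp3a2: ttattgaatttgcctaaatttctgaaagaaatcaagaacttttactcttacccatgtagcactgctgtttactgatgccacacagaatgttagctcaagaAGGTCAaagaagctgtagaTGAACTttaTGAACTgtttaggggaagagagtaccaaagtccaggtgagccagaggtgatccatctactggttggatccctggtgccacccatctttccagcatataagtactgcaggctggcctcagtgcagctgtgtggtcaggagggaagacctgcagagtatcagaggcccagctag
Cyp3a18: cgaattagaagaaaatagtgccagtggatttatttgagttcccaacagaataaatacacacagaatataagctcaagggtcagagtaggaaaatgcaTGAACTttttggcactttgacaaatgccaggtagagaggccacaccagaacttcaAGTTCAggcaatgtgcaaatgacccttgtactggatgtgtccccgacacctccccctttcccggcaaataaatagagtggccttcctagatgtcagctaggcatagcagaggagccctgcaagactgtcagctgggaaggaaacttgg
Both 2D promoters held 0 of these half-sites. Cyp2j3 held 1, which begins 35 bases before the start, Cyp3a18 held 2 (153 and 98 bases before it) and Cyp3a2 held 3 (150, 131 and 122 bases before it). A promoter entry was found for 33 of the 39 members. The 6 without one were Cyp1a1, Cyp2a2, Cyp4a1, Cyp4f4, Cyp4f17 and Cyp4v3, so Cyp1a1 is not in the counts that follow. AGGTCA on either strand was present in 11 of the 33 and in 15.7% of all 27457 rat promoters of the same length, and AGTTCA in 11 of the 33 and in 14.4%. The core GCGTG, to which the aryl hydrocarbon receptor binds, was sought on both strands (on the other it reads CACGC). It was present in 5 of 33 and in 31.1% of all promoters, and the glucocorticoid receptor half-site AGAACA, which reads TGTTCT on the other strand, in 8 of 33 and in 20.1%. These are letter matches and not sites of binding. Aligned with each other, the promoters of Cyp3a2 and Cyp3a23-3a1 were identical over 80.6% of the alignment, and those of Cyp3a2 and Cyp3a18 over 53.6%.

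All 5 tested members of subfamily 2C had differences below 0 on day 1, between -0.19 and -0.11, and 3 of them fell. Cyp2c11, the main male-specific P450 of rat liver and a testosterone hydroxylase, read 6693 to 7402 (median 7059) in air and 6180.0 to 7075 (median 6233) in ozone. Of the ozone arrays 5 lay below the whole air range, and replicate 4, at 7075, lay inside it (-0.15 ± 0.06, adjusted p = 0.0392). Cyp2c13, also male-specific, read 7046 to 7884 (median 7368) and 6141 to 6902 (median 6517), without overlap (-0.19 ± 0.05, adjusted p = 0.0018). Its probe set carries the array's mark for possible cross-hybridisation with related transcripts. Cyp2c23, an epoxygenase of arachidonic acid, read 5007 to 5666 (median 5334) and 4280.3 to 5444 (median 4698) (-0.18 ± 0.06, adjusted p = 0.0359). Its ozone replicate 1, at 5444, lay above every air array except the one at 5666. Cyp2c12, the female-specific steroid sulfate hydroxylase, read 369 to 457 (median 404) in air and 295 to 531 (median 329) in ozone and did not pass (-0.15 ± 0.14, adjusted p = 0.441). The calls differed in how firmly they held. Cyp2c13 passed in every fit with 1 array left out. Cyp2c11 was lost in 9 of 12 such fits, all but those without replicate 1 or 2 of air or replicate 4 of ozone (adjusted p up to 0.194), and Cyp2c23 in 6 of 12, those without replicate 1, 3 or 4 of air or 2, 4 or 5 of ozone (up to 0.0968).

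Cyp4v3, the rodent counterpart of a fatty acid hydroxylase whose human gene is mutated in Bietti crystalline dystrophy of the retina, was the member of family 4 with the largest fall. It read 1347 to 1518 (median 1443) in air and 1085 to 1262 (median 1171) in ozone, without overlap. The difference was -0.29 ± 0.06 (adjusted p = 0.000358), and a second probe set for the same gene gave -0.30 ± 0.07 (adjusted p = 0.00223). Cyp4f1, of a subfamily that inactivates leukotrienes, fell, with 3831 to 4133 (median 3966) in air and 3214 to 3936 (median 3564) in ozone (-0.16 ± 0.05, adjusted p = 0.0245). It was lost without replicate 2 of air or replicate 5 of ozone (adjusted p up to 0.124). Cyp4f4 lay on the other side of 0, with 1149.7 to 1490.1 (median 1275) and 1308 to 1493 (median 1397), and did not pass (0.11 ± 0.07, adjusted p = 0.271). The eleventh fall, Cyp2b3, was the only tested member of subfamily 2B and also had no overlap between ozone and air arrays. It was lost without replicate 1 or 3 of air or 5 or 6 of ozone (adjusted p up to 0.173). Quantile normalisation of the arrays ended the calls of Cyp2b3, Cyp4f1 and Cyp2c11, which left 8 falls, and Cyp2c11 was also lost with the replicate number as a block. Other fits added calls: Cyp3a23-3a1 fell without replicate 5 of ozone, and Cyp4f6 fell and Cyp4a3 rose without the 4 arrays that stood apart. The shares of all genes called in these fits are not given here.

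The 4A enzymes, ω-hydroxylases of fatty acids and classical targets of PPARα, lay above 0. Cyp4a1 read 1594 to 2715 (median 2091) in air and 2178 to 3106 (median 2835) in ozone. The groups overlapped: all 6 ozone arrays lay above the air median, but those at 2178 and 2630 lay within the air range. The difference was 0.40 ± 0.14, 1.32-fold higher (adjusted p = 0.0322). Cyp4a3, the direct neighbour of Cyp4a1 in GRCr8, read 2143 to 3714 (median 3096) and 2898 to 4450.2 (median 3807) and did not pass (0.31 ± 0.15, adjusted p = 0.111). Nor did Cyp4a8, which read 439.6 to 654 (median 518) and 523 to 715 (median 572) (0.17 ± 0.13, adjusted p = 0.355). Cyp4b1, an enzyme best known from lung, rose, with 268 to 395 (median 288) in air and 324 to 417 (median 346) in ozone (0.23 ± 0.08, adjusted p = 0.0264), and replicate 5 of air, at 395, was the sole air array above the lowest ozone array. The Cyp4a1 call was lost in 6 of 12 fits with 1 array left out (replicates 4, 5 and 6 of air and 1, 2 and 3 of ozone, adjusted p up to 0.0974), and that of Cyp4b1 in 4 of 12 (replicates 1, 2 and 4 of air and 5 of ozone, up to 0.0849). Cyp4b1 was lost with array weights too. Both were also lost without the 2 arrays dim in nonspecific binding, and Cyp3a18 and Cyp2c11 were too, which left 10 calls. The share of all genes called in that fit is not given here, so the lower count is not read as particular to the members.

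In all, 22 tested members did not pass on day 1, with differences from -0.19 for Cyp3a23-3a1 to 0.31 for Cyp4a3. Cyp1a1, the enzyme most strongly induced by aromatic hydrocarbons, read 171 to 271 (median 187) in air and 185 to 231 (median 192) in ozone (-0.03 ± 0.13, interval -0.30 to 0.24). Cyp1a2, which oxidises caffeine and aryl amines, read 5666 to 6528 (median 6101) and 5505 to 6068 (median 5708) (-0.08 ± 0.10, interval -0.28 to 0.12). Cyp2e1, the ethanol-inducible enzyme, read 7714 to 9379 (median 9059) and 7684 to 9216 (median 8455) (-0.08 ± 0.04, interval -0.17 to 0.01). For all these the ranges overlapped and the interval included 0. Cyp2e1 depended on replicate 2 of air, an array dim in nonspecific binding: without it the gene was lower after ozone (-0.12 ± 0.04, adjusted p = 0.0242), and it also passed with array weights (-0.10 ± 0.04, adjusted p = 0.0368). The testosterone hydroxylases Cyp2a1 and Cyp2a2 differed by -0.15 ± 0.09 and -0.12 ± 0.07 (adjusted p = 0.235 and 0.217). Over the list of 5 male-predominant enzymes (Cyp2a2, Cyp2c11, Cyp2c13, Cyp3a2 and Cyp3a18) 4 fell and 0 rose on day 1, beside 16.4% falls over all genes, with a median difference of -0.19. Of these 4 calls, those of Cyp2c11 and Cyp3a18 were lost without the 2 arrays dim in nonspecific binding. Of the female-predominant ones 3 could be tested (Cyp2a1, Cyp2c12 and Cyp3a9), and 0 passed by limma. The members of both lists are also counted above.

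When the exposure of day 2 ended, 0 of the 36 members passed by limma, with 12 at an unadjusted p under 0.05. Of all genes, 0.705% passed (0.465% as rises and 0.241% as falls), so few genes of any kind were called. The median difference of the members was 0.00012, and 18 lay above 0 and 18 below. Ozone and air did not overlap for 3 members, Cyp2d2, Cyp2d3 and Cyp3a18, all higher after ozone, and 1.49% of all genes tested were without overlap. Cyp2d3 read 2624, 2448, 2612, 2590.4 and 2485 in air and 2778, 2884, 2744, 3005 and 2896 in ozone. The difference was 0.16 ± 0.05 (adjusted p = 0.0791), on the other side of 0 from day 1. Cyp2d2 read 7159.9, 6958, 7201, 6905 and 7127 in air and 7281, 7447, 7937, 7598 and 7904 in ozone (0.11 ± 0.04, adjusted p = 0.117). Cyp3a18 read 3715, 2765, 3388, 3784 and 3583 in air and 4146, 3832, 4889, 4146 and 4151 in ozone (0.30 ± 0.16, adjusted p = 0.439).

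The largest differences on day 2 were those of Cyp4a1 and Cyp4a3, while the third 4A ω-hydroxylase, Cyp4a8, differed by 0.06 ± 0.14 (adjusted p = 0.967). Cyp4a1 read 2199, 1693, 1654, 1628 and 3039 in air and 3087, 3231, 2959, 2522 and 2875 in ozone. The air array at 3039 was replicate 5, one of the 4 that stood apart; the other 4 lay below every ozone array. Over all arrays the difference was 0.56 ± 0.16 (adjusted p = 0.0727). Cyp4a3 had the same arrangement, with 3439.5, 2368, 2093, 2199 and 3890.1 in air and 3653, 3992, 3698, 3555 and 3550.3 in ozone (0.44 ± 0.16, adjusted p = 0.167). Cyp4f4 had the smallest adjusted p of the members, with 1506, 1267, 1429.5, 1437 and 1772 in air and 2043, 1846, 1831, 1759.6 and 1574 in ozone (0.29 ± 0.08, adjusted p = 0.062). The lowest ozone value and the highest air value were both those of replicate 5. Cyp2c11 lay lower, with 7088, 7205, 7583, 7499 and 6124 in air and 5919, 5659.6, 6683, 5850.0 and 6843 in ozone (-0.20 ± 0.06, adjusted p = 0.0979).

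The count of 0 on day 2 changed when arrays that stood apart were left out. Replicate 5 of air was left out for lying nearer ozone, which by itself tends to widen the differences, so these fits are not a separate test. Without replicate 5 of air alone, 10 members passed (6 rises and 4 falls, with 8.40% of all genes called), and without replicate 5 of ozone alone 6 passed (3 and 3, with 4.35% of all genes). Without all 4 arrays that stood apart, 12 members passed, when 13.5% of all genes did. The 7 rises were Cyp2d4, Cyp2j4, Cyp3a9, Cyp4a1, Cyp4a3, Cyp4b1 and Cyp4f4, and the 5 falls Cyp1a2, Cyp2b3, Cyp2c11, Cyp2c22 and Cyp2f4. In that fit Cyp4a1 rose by 0.72 ± 0.13 (adjusted p = 0.000333) and Cyp3a9 by 0.63 ± 0.11 (adjusted p = 0.000186), and Cyp2c11 fell by 0.29 on the log2 scale (adjusted p = 0.00106). Cyp2j3, Cyp3a2 and Cyp4v3, 3 of the largest falls of day 1, were not among these 12. Without all 7 arrays 9 members passed, with 8.58% of all genes, and all 9 were among the 12 (Cyp2b3, Cyp2d4 and Cyp4b1 were lost).

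**Figure D2:**
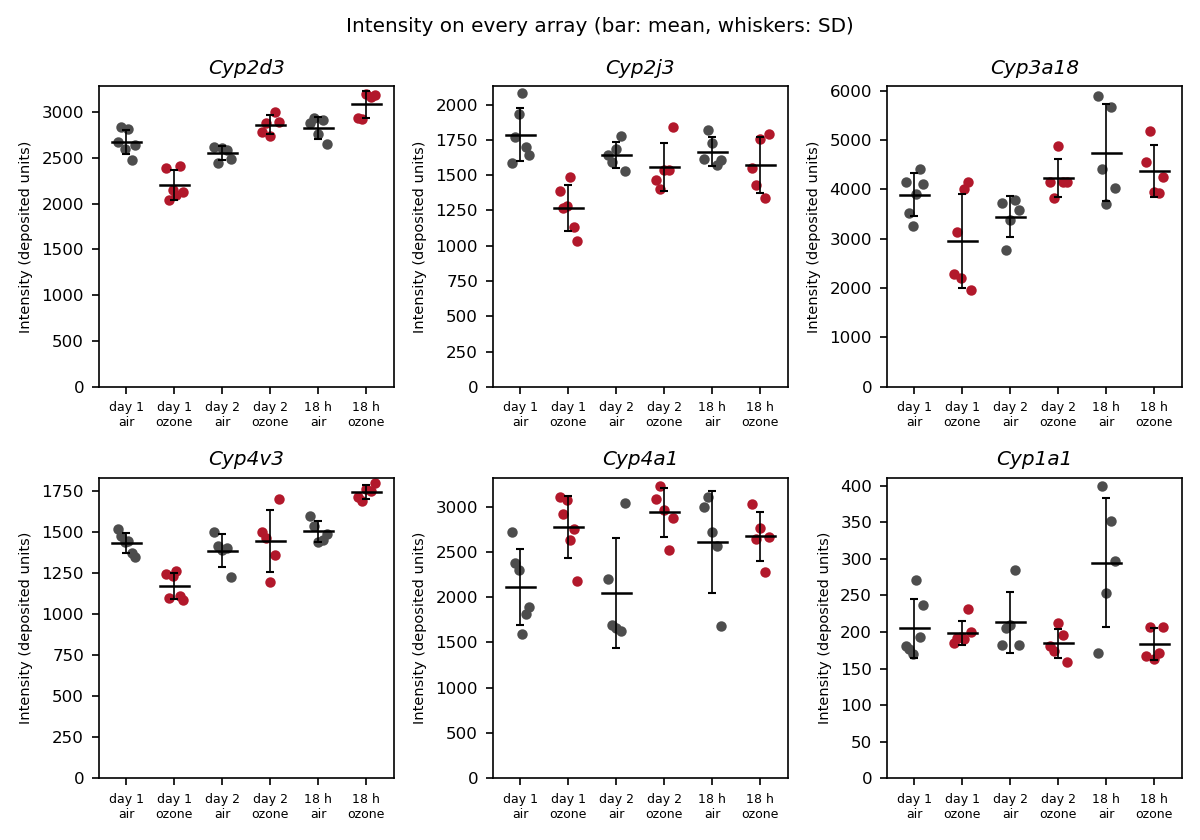
Deposited intensity (y axis, linear, from 0) of 6 members on every array, by group, with the group mean as a bar and the SD as whiskers. Cyp2d3, Cyp2j3 and Cyp4v3 are low in ozone on day 1 with no overlap with air, Cyp4a1 in day 2 air holds 1 array (3039) far above the other 4, and Cyp1a1 in air at 18 h holds 1 array (172) at the level of ozone.

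At 18 h after the exposure of day 2, 1 of the 36 members passed: Cyp1a1 was lower after ozone, and 8 members had an unadjusted p under 0.05. The share of all genes that passed was 1.17% (0.86% rises and 0.31% falls). Cyp1a1 read 172, 399, 253, 352 and 297 in air and 168, 207, 164, 171 and 207 in ozone. Of the 5 air arrays 4 lay above all ozone arrays, and replicate 1, which stood apart, lay among the ozone values. The difference was -0.60 ± 0.15, 1.51-fold lower (adjusted p = 0.0354). It was -0.80 ± 0.14 (adjusted p = 0.000503) without the 4 arrays that stood apart, and it was lost in 8 of 10 fits with 1 array left out, all but those without replicate 1 of air or replicate 2 of ozone (adjusted p up to 0.153). In the air groups of day 1 and day 2 the gene read 171 to 271 (median 187) and 183 to 285 (median 206), and air at 18 h differed from air on day 2 by 0.40 ± 0.15 (adjusted p = 0.305).

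Cyp1a2, next to Cyp1a1 on the chromosome, came close to the threshold at 18 h. It read 4176, 6758, 6642, 6695 and 6459 in air and 4969, 4819, 4402, 3487 and 5211 in ozone. Again replicate 1 of air was the array among the ozone values, and the other 4 lay above every ozone array. The difference was -0.41 ± 0.11 (adjusted p = 0.0514), and without replicate 1 of air it passed. Without the 4 arrays that stood apart it was -0.56 ± 0.08 (adjusted p = 4.3e-05). That fit called 5 members, when it called 4.95% of all genes: Cyp1a1 and Cyp1a2 as falls, and Cyp4f1 (0.26 ± 0.05, adjusted p = 0.00192), Cyp4f6 and Cyp4v3 as rises. The fit without all 7 arrays called the same 5. Both fits leave out replicate 1 of air, which lay nearer ozone at 18 h, and this by itself tends to widen the differences.

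Cyp4v3 was the only member without overlap at 18 h, and 2.76% of all genes tested were without overlap. It read 1596, 1539, 1443, 1455 and 1490.3 in air and 1715, 1688, 1764, 1752 and 1798 in ozone (0.21 ± 0.06, adjusted p = 0.102), higher after ozone where on day 1 it had been lower. Cyp4f1 read 4298, 3681, 3624, 3750.4 and 4201 in air and 4788, 4156, 4505, 4445 and 4239.7 in ozone (0.18 ± 0.06, adjusted p = 0.13). The members that led the falls of day 1 did not pass at 18 h. Cyp2j3 differed by -0.09 ± 0.09 (interval -0.27 to 0.09), Cyp3a2 by -0.11 ± 0.13 (-0.38 to 0.15) and Cyp3a18 by -0.10 ± 0.16 (-0.42 to 0.22). For Cyp4a1 the difference was 0.06 ± 0.16 (-0.26 to 0.38). All these intervals include 0.

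Whether the ozone effect itself changed from day 1 to day 2 was tested as the difference of both ozone minus air differences. It uses the same arrays as both, so it is not separate from them. The effect moved upward for 5 of the 36 members and downward for 0, with 11 at an unadjusted p under 0.05. Over all genes 5.09% changed (3.13% upward and 1.96% downward). The change was 0.44 ± 0.06 for Cyp2d3 (adjusted p = 0.000423), 0.25 ± 0.05 for Cyp2d2 (0.00395) and 0.34 ± 0.09 for Cyp4v3 (0.0208). It was 0.75 ± 0.21 for Cyp3a18 (0.0358) and 0.41 ± 0.12 for Cyp2j3 (0.0408). On day 2 the difference of Cyp2j3 was near 0: it read 1644, 1591, 1683, 1775 and 1527 in air and 1463, 1402, 1537, 1536 and 1840.3 in ozone (-0.08 ± 0.09). For Cyp2d2, Cyp2d3 and Cyp3a18 the differences of both days lay on opposite sides of 0. For Cyp4v3 the difference on day 2 was 0.05 ± 0.06 (adjusted p = 0.89), with a sign that turned without replicate 5 of ozone (-0.0083) and without the 4 arrays that stood apart (-0.05 ± 0.06).

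Of these changes, those of Cyp2d2 and Cyp2d3 passed in all alternatives and with any 1 array left out. Cyp4v3 was lost without replicate 5 of day 2 ozone (adjusted p = 0.101) and without the 4 arrays that stood apart. Cyp2j3 was lost in 11 of 22 fits with 1 array left out (adjusted p up to 0.187), those without replicate 2, 3 or 4 of day 1 air, 2, 3, 5 or 6 of day 1 ozone, 2, 3 or 5 of day 2 air or 5 of day 2 ozone. Cyp3a18 was lost in 12 of 22 (up to 0.0733), those without replicate 1, 5 or 6 of day 1 air, 1, 3 or 6 of day 1 ozone, 2, 3 or 5 of day 2 air or 1, 3 or 5 of day 2 ozone. Without the 4 arrays that stood apart, the members called were Cyp2d3 (0.43 ± 0.07, adjusted p = 0.00145), Cyp2d2 (0.24 ± 0.05, adjusted p = 0.008) and Cyp2j4, and 2.68% of all genes were called. Without all 7 arrays they were these 3 and Cyp2c22, the last downward, with 2.01% of all genes. Without replicate 5 of day 2 ozone 2 members remained called, Cyp2d2 and Cyp2d3. Cyp2j3 and Cyp3a18 were also lost without the 2 arrays dim in nonspecific binding. Over all fits run, the adjusted p by limma reached 0.377 for Cyp2j3 and 0.246 for Cyp3a18.

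**Figure D3:**
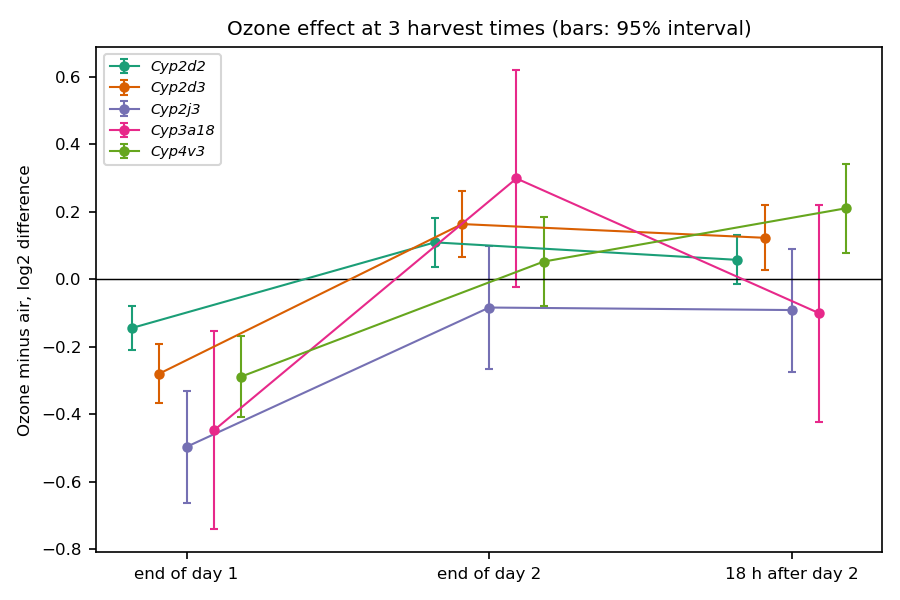
Ozone minus air as log2 difference (y axis, with 95% interval) at the 3 harvest times for the 5 members whose ozone effect changed between day 1 and day 2. All 5 lie below 0 on day 1, from -0.14 for Cyp2d2 to -0.50 for Cyp2j3, and Cyp2d2, Cyp2d3 and Cyp3a18 lie above 0 on day 2, where Cyp4v3 is at 0.05 and Cyp2j3 at -0.08.

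From day 2 to 18 h after it, the change of the ozone effect passed for 0 of 36 members by limma (7 at an unadjusted p under 0.05), and for 0.0086% of all genes, which is 1 gene. Without the 4 arrays that stood apart 12 members passed, when 9.74% of all genes did, among them Cyp4a1 (-0.78 ± 0.19, adjusted p = 0.00672) and Cyp4a3 (-0.82 ± 0.20, adjusted p = 0.00663). Without all 7 arrays 9 passed, these 2 among them, with 6.68% of all genes. The air groups bear on this, since each ozone group was set against the air group of its own time. Air at 18 h minus air on day 2 passed for 0 members (8 unadjusted) and 0.12% of all genes, and air on day 2 minus air on day 1 for 0 members (3 unadjusted) and 0.0086% of all genes. Without the 4 arrays, air at 18 h was higher than air on day 2 for 4 members: Cyp1a1, Cyp2j4, Cyp4a1 (0.64 ± 0.14, adjusted p = 0.0101) and Cyp4a3 (0.75 ± 0.15, adjusted p = 0.0046). Without all 7 it was higher for 3 of these, all but Cyp1a1. For this air comparison the share of all genes called in the reduced fits is not given here. These counts are therefore not read as particular to the members. In air at 18 h Cyp4a1 read 2992, 3103, 2714, 2568 and 1682, with replicate 5 lowest, and in ozone 3025, 2637, 2761, 2273 and 2661.

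Genes that serve the P450 system were followed in a list of 19, of which 17 could be tested. On day 1, 1 rose and 7 fell (median difference of the list -0.15), beside 13.1% rises and 16.4% falls over all genes. The rise was Por, the electron donor of all these enzymes (1.40 ± 0.23, 2.64-fold, adjusted p = 2.44e-05), in the comparison in which 11 of the 36 tested members fell and 3 rose. The falls with the smallest p were Alad and Fech, both enzymes of haem synthesis (-0.54 ± 0.08, adjusted p = 9.55e-06, and -0.27 ± 0.05, adjusted p = 7.42e-05). On day 2 and at 18 h 0 of the 17 passed, beside 0.705% and 1.17% of all genes.

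In a list of 30 regulators of P450 genes, 25 could be tested. On day 1 4 rose and 9 fell (median -0.15), beside 13.1% rises and 16.4% falls over all genes. Nr1i2, the pregnane X receptor, which is known to drive 3A genes, rose by 0.70 ± 0.11 (adjusted p = 2.17e-05). Of the 4 tested 3A genes 2 fell and 0 rose by limma, and the fall of Cyp3a18 was lost in some fits. Cyp3a9 lay above 0 and passed in some fits. Whether the 3A differences are linked to that of Nr1i2 was not tested. Ppargc1a, a coactivator of fasting metabolism, rose by 0.86 ± 0.16 (adjusted p = 0.000114). Nr0b2, a corepressor of nuclear receptors, fell (-1.39 ± 0.26, adjusted p = 0.000114). The calls of Nr1i2, Ppargc1a, Nr0b2, Por, Alad and Fech held in all 14 alternatives run and with any 1 array of day 1 left out. On day 2 0 of the 25 passed, beside 0.705% of all genes. At 18 h 1 did, a rise of Foxa2 (0.63 ± 0.16, adjusted p = 0.04), beside 1.17% of all genes. That call was lost in 6 of 10 fits with 1 array left out (replicates 2, 3 and 4 of air and 3, 4 and 5 of ozone). It was also lost with array medians centred and with only the 2 groups in the fit.

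Markers of other liver cells fell about as often on day 1 as genes in general: 5 of 28 tested fell (17.9%, beside 16.4% of all genes) and 0 rose by limma. Of 7 tested Kupffer cell and macrophage markers 2 fell, and their summed intensity was 4551 to 5549 in air and 3444 to 5506 in ozone. Of the endothelial, stellate and cholangiocyte markers 1 each fell (of 5, 6 and 4 tested), with sums of 2314 to 3067, 2147 to 2644 and 749 to 883 in air and of 2187 to 2971, 1864 to 2449 and 709 to 776 in ozone. Neutrophil and monocyte markers summed to 628 to 726 in air and 642 to 718 in ozone, and erythroid markers to 315 to 366 and 318 to 369. Of 7 hepatocyte markers 1 fell, with sums of 65479 to 68206 in air and 63417 to 68033 in ozone. On day 2 the only call among these markers was a fall of Lyz2, a macrophage lysozyme, and at 18 h a rise of Stab2, a receptor of sinusoidal endothelium. The Kupffer cell sums were 3343 to 5439.8 in air and 2827 to 3969 in ozone on day 2, and 4123 to 4674 and 3232 to 4078 at 18 h. No marker read 0, since no value in the table does. The part of these cells in the P450 differences was not tested.

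The members varied more between arrays of a group than most genes did. Their median SD within groups was 0.12 on the log2 scale, and that of all genes tested 0.079. Among the members it ran from 0.041 for Cyp1b1 and 0.053 for Cyp2d2 to 0.27 for Cyp4a3, Cyp3a18 and Cyp4a1, so that differences of like size passed for Cyp2d3 and not for Cyp3a9. Some members of a subfamily also went up and down together from array to array. As a description, the deviations of the 32 arrays from their group means were correlated for 35 pairs within subfamilies, with a median Pearson r of 0.26, against 0.04 over all 630 pairs of members. Each pair was read from the same arrays, so a shift in the brightness of an array enters both values. RNA of a close relative picked up by a probe set can do so too.

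The highest r was that of the neighbours Cyp4a1 and Cyp4a3 (r = 0.89, Spearman rho = 0.83, and r = 0.83 without the 2 arrays farthest from the median of Cyp4a1). The neighbours Cyp4f1 and Cyp4f6 reached 0.72 (rho 0.66, and 0.65 without 2 arrays), while Cyp4f4 ran opposite to Cyp4f6 (r = -0.60, rho = -0.52, and -0.51 without 2 arrays). The neighbours Cyp2a1 and Cyp2a3 also ran opposite (r = -0.61, rho = -0.61, and -0.54 without 2 arrays). Cyp2c13 and Cyp2c23 reached 0.69, and Cyp1a1 and Cyp1a2 0.62, which dropped to 0.41 without 2 arrays. The neighbours Cyp2d2 and Cyp2d3, whose ozone effects changed in the same direction, reached 0.40 (rho 0.32, and 0.30 without 2 arrays). Cyp2j3 and Cyp2j4, also neighbours, were at 0.018. High r was thus not shared by all neighbours.

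**Figure D4:**
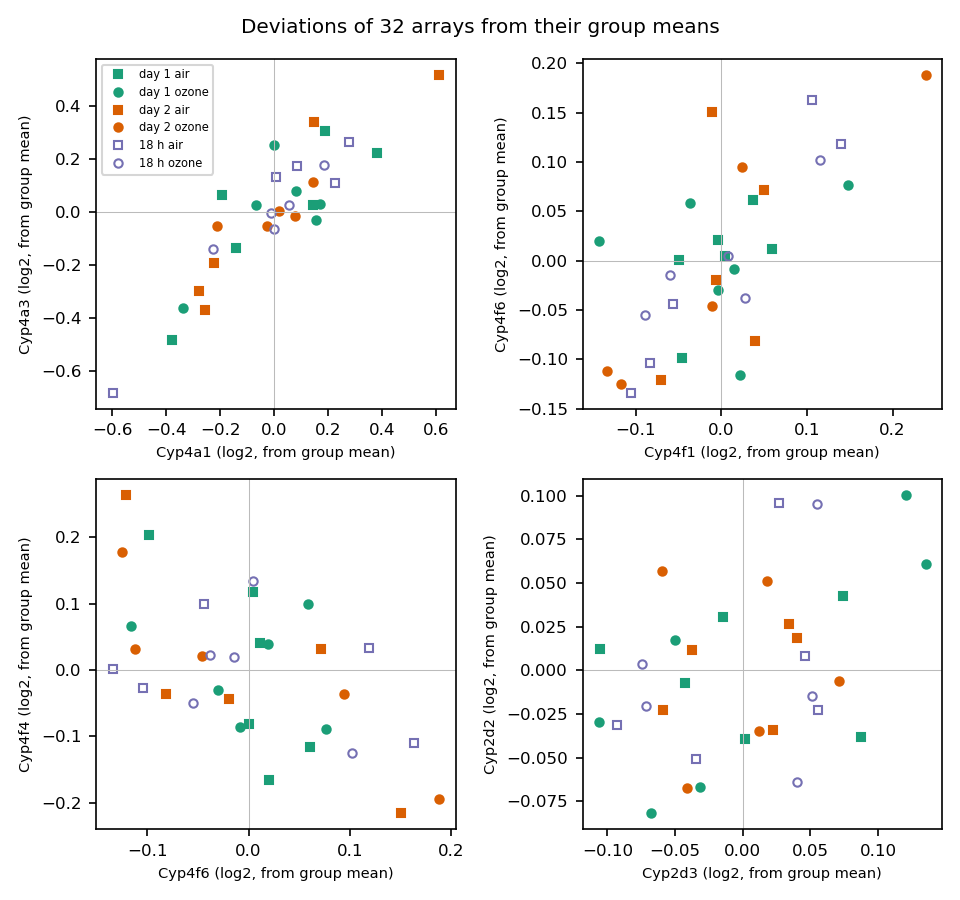
Deviation of each of the 32 arrays from its group mean (log2) for 4 pairs of members, with colour and symbol for the group. Cyp4a1 and Cyp4a3 lie along a rising line (r = 0.89), Cyp4f1 and Cyp4f6 rise more loosely (0.72), Cyp4f6 and Cyp4f4 run opposite (-0.60), and Cyp2d3 and Cyp2d2 scatter most (0.40).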

How the data were processed

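Liver RNA of 32 samples was hybridised to Affymetrix HT-RG-230 PM arrays. The authors deposited 1 table of probe-set intensity, on a linear scale from 30.5 to 15558, made with Affymetrix Expression Console and PLIER, per the submitters' processing notes. For versions, background correction and the scaling between arrays, the entry is: not given in the sources used here. The number of arrays limits the precision.

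Of 31139 probe sets, those for controls (97), for no gene (11407) or for several genes (573) were dropped. Of the 13437 genes of the other 19062, 11625 were tested, those at or above the 25th percentile of mean log2(intensity + 16). One limma 3.58.1 model (R 4.3.3, lmFit and eBayes with an intensity trend) of the 6 group means gave two-sided p-values, adjusted by Benjamini-Hochberg over all 11625 genes. It was tested on simulated data. Named with full values were the 8 largest rises and falls past the threshold in each ozone contrast, the 3 largest in each other contrast, and a list of well-known members. Of partners and regulators the 3 with the smallest p were named. The members and all lists were chosen with earlier results of these data known.

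Replicate numbers recur in every group and were not used as pairs in the main fit. Correlations of same-numbered deviations passed 0.1 in 0 of 6 pairs on day 1, 0 of 5 on day 2 and 2 of 5 at 18 h. Those 2 were also the best match of their air array. So few correlations cannot exclude a pairing. Alternatives covered the offset, filter, scaling, probe-set choice, trend, array weights, groups in the fit, a replicate block and arrays left out. Promoters are from RefSeq (GRCr8), aligned with Biopython 1.88. The other scripts used Python 3.11.15, pandas 2.3.3, numpy 2.4.6, scipy 1.17.1 and matplotlib 3.10.9.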

Additional observations from a re-analysis of the deposited data

Results flagged for a closer look

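Within groups, 21 values of members stood apart from the other arrays of their group, meaning that the gap to the nearest array was a large share of the group's range. They came from 234 sets of arrays, of which chance alone would flag about 1 in 20, or 11.7. On day 1, Cyp2b12, Cyp2b21 and Cyp2e1 were low in air replicate 2, an array dim in nonspecific binding (60.4, 80.3 and 7714 units, gaps of 0.804, 0.678 and 0.781 of the range). Cyp2b3 was high in air replicate 1 (5132, 0.645) and Cyp4b1 in air replicate 5 (395, 0.778). In ozone, Cyp1a1 was high in replicate 5 (231, 0.646) and Cyp2b3 low there (3961, 0.681), and Cyp2c11 and Cyp2u1 were high in replicate 4 (7075 and 246, gaps of 0.712 and 0.633). On day 2, air replicate 5 was low for Cyp2b3 (4189, 0.758), Cyp2c13 (6339.6, 0.714) and Cyp2f4 (654, 0.729). Ozone replicate 5 was high for Cyp2f4 (853, 0.803) and low for Cyp3a9 (1738, 0.72), and ozone replicate 3 was low for Cyp2b21 (100.4, 0.736). At 18 h in air, Cyp1a2 was low in replicate 1 (4176, 0.906), Cyp2j4 and Cyp4a3 were low in replicate 5 (519 and 2268, gaps of 0.887 and 0.835) and Cyp4f17 was high there (139, 0.87). Cyp2a3 and Cyp2g1 were high in air replicate 3 at 18 h (152 and 199, gaps of 0.727 and 0.731).

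The ozone effect differed between day 1 and day 2 for 5 members, by the tested difference of both effects: 0.25 for Cyp2d2, 0.44 for Cyp2d3, 0.41 for Cyp2j3, 0.75 for Cyp3a18 and 0.34 for Cyp4v3, all on the log2 scale and upward.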

How the results depend on the processing

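The day 1 count of 14 members stayed between 10 and 17 under all alternatives and between 10 and 14 with any 1 array left out. The share of all genes called moved with the fit too, as given above for the fits without the arrays that stood apart. For array weights and most other fits it is not given here, so those counts are not read as particular to the members. Array weights gave 12 calls on day 2 (reported 0), 4 at 18 h (reported 1), 9 for the change of the effect from day 2 to 18 h (reported 0) and 10 for air at 18 h against day 2 (reported 0). Without the 4 arrays that stood apart these counts were 12, 5, 12 and 4, and the change from day 1 to day 2 gave 3 (reported 5). Without all 7 arrays nearer another group, day 2 gave 9 calls, 18 h 5, the change from day 2 to 18 h 9 and air at 18 h against day 2 gave 3. Without the 2 arrays dim in nonspecific binding the change from day 1 to day 2 gave 3 calls. At 18 h, quantile normalisation gave 2 calls and a fit on only those 2 groups 0. With 1 array left out, day 2 gave 0 to 10 calls, 18 h 0 to 3 (3 without replicate 1 of air), the change from day 1 to day 2 gave 2 to 7 (2 without replicate 5 of day 2 ozone, 3 without replicate 3 or 6 of day 1 ozone or 2 or 3 of day 2 air, 7 without replicate 1 of day 2 air), and air at 18 h against day 2 gave 0 to 1 (1 without replicate 5 of air at 18 h). With the replicate number as a block, day 1 gave 13 calls, all among the 14, day 2 gave 0, 18 h gave 1 and the change from day 1 to day 2 gave 5. Of 81 gene results, 27 were called, 15 of these in every fit run, and 0 of the 81 changed direction past the threshold. These results cover members together with the partners and regulators named above. Among the 15, the members on day 1 were Cyp2c13, Cyp2d2, Cyp2d3, Cyp2j3, Cyp2j10, Cyp3a2 and Cyp4v3. The changes of Cyp2d2 and Cyp2d3 from day 1 to day 2 were also among them. The others were Por, Alad, Fech, Nr1i2, Ppargc1a and Nr0b2, which are not members. Scaling moved the median difference of all genes by at most 0.018. The cause of these shifts was not tested. Depth has no counterpart here: members near the nonspecific level (among them Cyp2a3, Cyp2j10, Cyp2b12, Cyp2b21 and Cyp4f17) are measured least well.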
